A study of Mus musculus with 2 samples.

Results

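MicroRNA precursor probesets are the array features designed on the hairpins from which microRNAs are cut. They were taken as every main probeset of the deposited RMA table whose annotation gave a single gene symbol beginning with Mir and a digit, or with Mirlet7. This gave 586 probesets with 526 symbols, of 41345 probesets on the array and 26563 main probesets named by 1 symbol. The rule used the symbol and no measured value. Of the 586, 1 carried Mir17hg, a microRNA host transcript, and 13 spanned more than 400 bases. The others were short, with a median span of 86 bases and a median of 16 probes over all of them. The deposited annotation called 411 of them unique and 175 not unique, meaning that probes of the latter also match other sequences.

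RNA came from macrophages drawn into the peritoneal cavity by thioglycollate, an irritant, in C57BL/6 mice. The first group was HDAC11 KO, macrophages of mice without the histone deacetylase HDAC11, and the second was WT, macrophages of wild-type mice. Both were cultured overnight in RPMI with serum, received no treatment, and the adherent cells gave RNA on silica columns, from which a whole-transcript kit made biotinylated cDNA. Such columns keep long RNA better than very short RNA. There was 1 array per genotype, and the sources used here do not give the number of animals behind each, so no difference has a replicate check, a p-value or an SD.

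A microRNA gene is transcribed as a long primary transcript, often as an intron of a host gene or as a run of several hairpins. In the nucleus Drosha and Dgcr8 cut out the hairpin, Xpo5 carries it to the cytoplasm, and Dicer1 trims it to a mature strand that Argonaute proteins use to find target mRNAs through the seed, its bases near the 5′ end. Macrophages are known for miR-155, miR-146a, miR-142, miR-223 and miR-511, among others, which tune inflammatory signalling and differentiation. A probe on a hairpin can pair with cDNA of the primary transcript, of a spliced-out intron or of the hairpin itself. The values are therefore signals over precursor sequence, not levels of mature microRNA.

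Most deposited intervals were the hairpins themselves. RefSeq, in its table for GRCm38.p6, held a sequence entry for 469 of the probesets and a hairpin for 443, and 390 of these had the same start, end and strand as the deposited interval. The sources used here do not state the build of the deposited coordinates. The hairpins below are shown as examples of what a probeset reads, from precursors that were lower on the KO-labelled array. Capitals mark the mature arms listed by RefSeq. Mir342 lies at chr12:108658620-108658718 on the plus strand, Mir532 at chrX:7248402-7248497 on the minus strand and Mir181a-1 at chr1:137966455-137966541 on the plus strand.
Mir342: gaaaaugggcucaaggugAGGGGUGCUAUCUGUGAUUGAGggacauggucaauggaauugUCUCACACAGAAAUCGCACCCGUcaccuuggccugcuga
Mir532: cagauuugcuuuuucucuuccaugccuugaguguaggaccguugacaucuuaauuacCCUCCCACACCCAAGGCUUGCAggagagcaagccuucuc
Mir181a-1: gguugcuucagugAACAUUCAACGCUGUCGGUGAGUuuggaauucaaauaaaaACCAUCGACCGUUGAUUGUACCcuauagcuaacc

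Mature strands of the precursors that the results turn on follow, with the seed (bases 2 to 8 from the 5′ end) in capitals, so that loci sharing a seed can be recognised. The first lines are precursors named for low differences, for their place in macrophages or for the Mir23, Mir27 and Mir24 clusters, and miR-24-3p comes from a pair of loci. Then come families that share a seed: miR-181 (ACAUUCA), miR-29 (AGCACCA), miR-15 and miR-16 (AGCAGCA), miR-25 and miR-92 (AUUGCAC), miR-27 (UCACAGU) and miR-221 with miR-222 (GCUACAU).
miR-505-3p: cGUCAACAcuugcugguuuucu
miR-505-5p: gGGAGCCAggaaguauugauguu
miR-342-3p: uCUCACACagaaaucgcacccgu
miR-532-3p: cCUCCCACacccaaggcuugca
miR-511-3p: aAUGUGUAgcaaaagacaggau
miR-142a-3p: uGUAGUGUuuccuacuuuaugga
miR-23a-3p: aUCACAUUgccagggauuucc
miR-24-3p: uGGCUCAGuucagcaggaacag
miR-181a-5p: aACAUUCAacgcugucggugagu
miR-181b-5p: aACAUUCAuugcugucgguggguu
miR-181c-5p: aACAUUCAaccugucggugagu
miR-181d-5p: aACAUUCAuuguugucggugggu
miR-29a-3p: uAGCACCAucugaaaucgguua
miR-29b-3p: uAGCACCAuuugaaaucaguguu
miR-15a-5p: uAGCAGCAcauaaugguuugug
miR-15b-5p: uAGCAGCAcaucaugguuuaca
miR-16-5p: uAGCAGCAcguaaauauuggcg
miR-25-3p: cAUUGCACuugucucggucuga
miR-92a-3p: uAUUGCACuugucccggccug
miR-92b-3p: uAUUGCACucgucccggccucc
miR-27a-3p: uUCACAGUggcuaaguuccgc
miR-27b-3p: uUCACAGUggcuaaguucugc
miR-221-3p: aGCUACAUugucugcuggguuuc
miR-222-3p: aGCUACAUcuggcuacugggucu

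Values are RMA signals on a linear scale, and each difference is log2 of the signal on the array labelled KO minus log2 of that on the WT array. A probeset reached the floor when its brighter signal was at least 159.1, the median over 24315 named genes. The Hdac11 probeset gave 147.2 on the KO-labelled and 134.5 on the WT array (0.13), both below the floor. The sources used here do not say whether its probes lie in the deleted part, so every direction below rests on the label. The 7 macrophage marker genes were bright, at 2898 to 13600 on the KO-labelled and 3151 to 13221 on the WT array. Other markers of peritoneal cells were dimmer. T cell markers lay below the floor on both arrays, and the 4 stromal markers (median -0.30) were lower on the KO-labelled array. Of the neutrophil markers S100a8 gave 0.89, S100a9 -0.11 and Ly6g 0.47, and of the mast cell markers Cpa3 gave 1.12, Kit 0.06 and Mcpt4 -0.07, where only S100a8 and Cpa3 reached the floor. On the Y chromosome, differences were -1.55 for Ddx3y, -2.77 for Kdm5d, -3.27 for Uty and -3.39 for Eif2s3y. Genotype, these other differences between the RNAs and the array itself cannot be told apart with 1 array each, and their part in the values of the precursors was not tested.

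Precursor signals were low for the array, although the brightness of a probeset also depends on its probes, so an order of brightness is one of probesets and not of RNA amounts. Their median was 60.1 on the KO-labelled and 60.2 on the WT array, against 143.0 and 138.5 over all named probesets. The signals ran to 12733 on the KO-labelled and 13517 on the WT array. Only 145 of 586 (24.7%) reached the floor, against 48.3% of named probesets, so 441 precursors were too dim for their differences to be given much weight. At the edge of the floor, Mir350, Mir301b and Mir3089 were the brightest that missed it, and Mir18, Mir3060 and Mir874 the dimmest that reached it. Across precursors the log2 signals of the 2 arrays correlated with r = 0.985 (586 probesets, not independent), and across named probesets with r = 0.995.

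The brightest precursor probeset was Mir5099, with 12733 on the KO-labelled and 13517 on the WT array (-0.09). It covers 74 bases at chromosome 12, 36816205 to 36816278, lies in no named gene and was called unique. Next came Mir692-1 with 10032 on the KO-labelled and 8685 on the WT array (0.21), and Mir449b with 5641 and 5369 on the same arrays (0.07). Mir449b lies inside Cdc20b on chromosome 13, where it and its relatives are known from cells that grow many cilia, and its probeset was not unique. The next 9 were Mir5123 (-0.33), Mir5125 (-0.41), Mir505 (-1.30), Mir1956 (0.08), Mir15a (-0.32), Mir1195 (-0.23), Mir680-2 (-0.15), Mir703 (-0.19) and Mir5109 (-0.25). Of the 12 brightest, 9 were not unique, so part of their signal may come from other sequences that the same probes match. Mir15a, with 1050 on the KO-labelled and 1309 on the WT array, and Mir505 are the unique, conserved precursors among them.

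Among precursors that differed by 1.5-fold, most were lower on the KO-labelled array, while over all precursors the balance turned with the probesets counted. Over all 586, 313 were lower, 260 higher and 13 equal, with a median difference of -0.04, where 44.0% of named probesets were lower and their median was 0.02. The 68 probesets inside Sfmbt2, described below, supplied 65 of the lower ones. Without them 248 were lower and 257 higher, with a median of 0.00, and the 411 unique probesets had 195 lower and 205 higher, with a median of 0.00. By 1.5-fold or more, 41 were lower, against 1.14% of named probesets, and 6 were higher, against 1.05%. Without the Sfmbt2 probesets these were 35 lower and 6 higher, and with unique probesets 29 and 5. By 2-fold or more, 5 were lower, against 0.207% of named probesets, and 0 were higher, against 0.117%. Among the 145 that reached the floor, 83 were lower and 61 higher, with a median of -0.08, where 52.8% of named probesets at the floor were lower and their median was -0.01. By 1.5-fold, 12 of these were lower and 0 higher, where 1.15% of named probesets at the floor were lower and 0.608% higher. By 2-fold, Mir505 alone was lower and none was higher, against 0.319% and 0.101%. A precursor that reached the floor only through its brighter array had to differ, and 5 of the 12 lower by 1.5-fold had a KO-labelled signal below it. With the floor required on both arrays 7 remained lower by 1.5-fold. With 1 RNA per genotype, fewer cells that express a precursor and less of it per cell cannot be told apart.

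**Figure D1:**
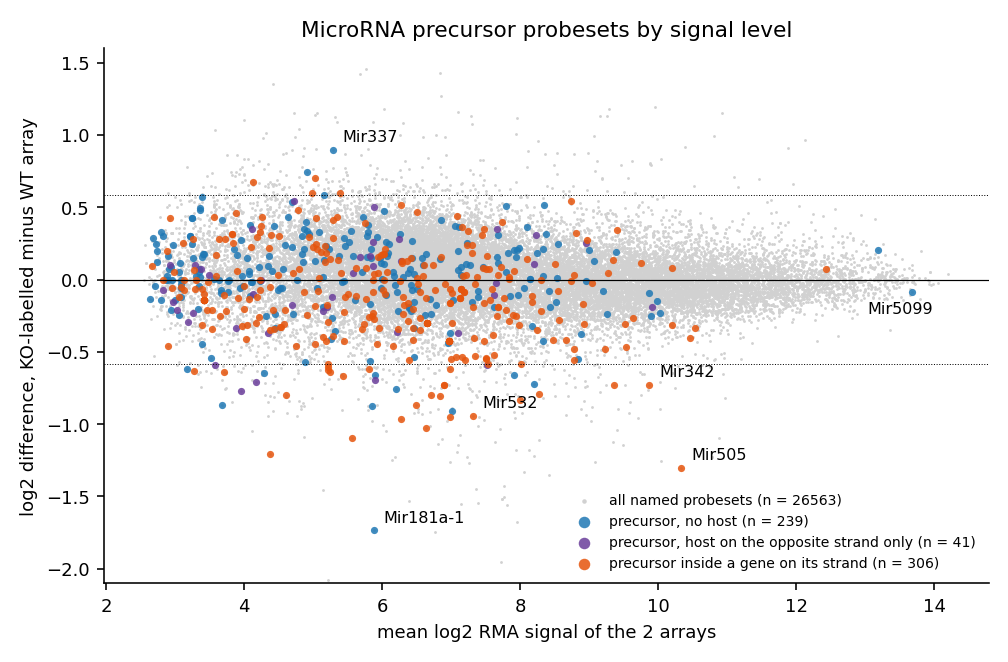
Log2 difference (KO-labelled minus WT array, vertical axis) against the mean log2 RMA signal of both arrays (horizontal axis) for 586 precursor probesets, coloured by whether a named gene holds them, over all 26563 named probesets in grey, with dotted lines at 1.5-fold. Orange points, precursors inside a gene on their own strand, lie below 0 in 196 of 306 cases, 65 of these in Sfmbt2, and Mir505 stands apart among bright precursors at -1.30. Named probesets beyond the vertical axis are not drawn.

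The direction varied with signal level and with whether a gene held the precursor on its strand. In 6 ranges of mean log2 signal, under 4, 4 to 5, 5 to 6, 6 to 7, 7 to 8, and 8 and over, the precursors had medians of 0.00, 0.02, 0.03, -0.14, -0.06 and -0.09. All named probesets in those ranges had 0.04, 0.06, 0.08, 0.08, 0.05 and -0.02. The range from 6 to 7 had 73 of 110 lower and 10 lower by 1.5-fold, against 1.04% of named probesets there. Without the Sfmbt2 probesets its median was -0.05, that from 7 to 8 turned to 0.03 and that at 8 and over was -0.08. With unique probesets these 3 medians were -0.05, 0.03 and -0.10. At 8 and over, 45 of 75 precursors were lower and 6 were lower by 1.5-fold, against 0.762% of named probesets. Higher precursors past 1.5-fold appeared only between 4 and 6, with 3 in each of those ranges.

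**Figure D2:**
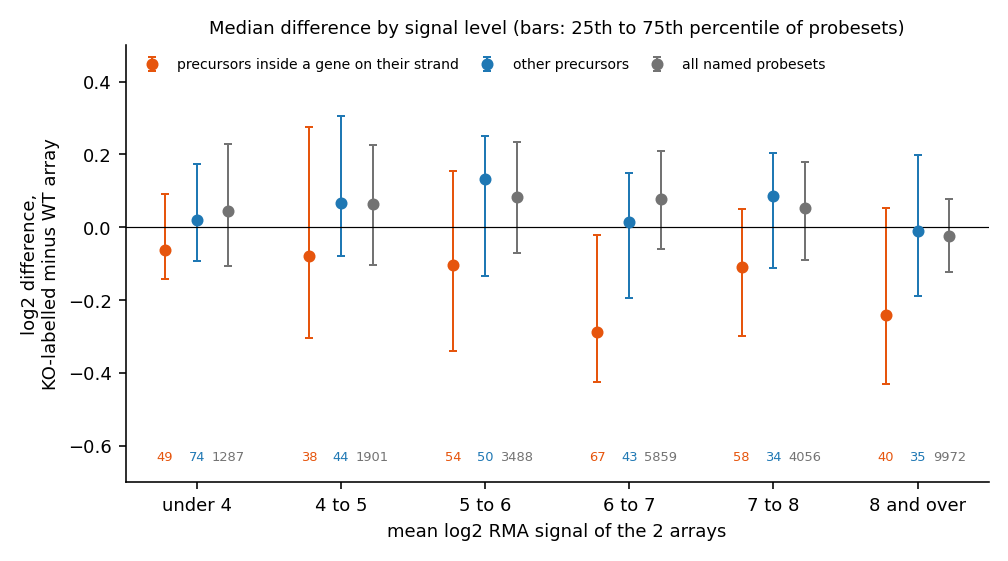
Median log2 difference (KO-labelled minus WT array) in 6 ranges of mean log2 RMA signal, with bars from the 25th to the 75th percentile of probesets and the number of probesets along the bottom. Precursors inside a gene on their strand (orange) had medians below 0 in all 6 ranges, reaching -0.29 between 6 and 7 (-0.08 there without the Sfmbt2 probesets, and 0.00 under 4), other precursors (blue) lay between -0.01 and 0.13, and all named probesets (grey) between -0.02 and 0.08.

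A named gene on the same strand held 306 of the precursors, and 41 lay only in a gene of the opposite strand. The 306 had a median of -0.13, with 196 lower and 104 higher, and 26 lower against 4 higher by 1.5-fold. The 239 in no named gene had a median of 0.05, with 95 lower and 138 higher, and 10 lower against 2 higher by 1.5-fold. Over all named probesets, 1.14% were lower and 1.05% higher by 1.5-fold. The higher shares of the 306 and the 239, 1.31% and 0.837%, lay near that, and their lower shares were 8.50% and 4.18%. The 41 in opposite-strand genes had a median of -0.07. At the floor, the 85 with a same-strand host had a median of -0.19, with 54 lower, and the 60 others had 0.00, with 29 lower. The host class used position alone, but hosted precursors share hosts and clusters, and 68 of the 306 lie in the single gene Sfmbt2. Without these the hosted precursors had a median of -0.07, with 131 lower and 101 higher, and 20 lower against 4 higher by 1.5-fold. At the floor the median without them was -0.13, with 44 of 75 lower. The 191 hosted precursors with unique probesets also had a median of -0.07, with 105 lower and 81 higher.

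Beside these, the array's 5331 intron control probesets, which read introns of genes, were lower as well. Counting each pair of signals once left 5124, with a median of -0.36, 4006 lower and 1691 (33.0%) lower by 1.5-fold. The 2335 of them at the floor had a median of -0.37. Precursors inside a gene on its strand thus stood between named probesets and intron controls in median. Whether each precursor lies in an intron of its host was not examined, and the part of the general shift of intron signal in their values was not tested.

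The lowest precursor at the floor was Mir505. It gave 823.9 on the KO-labelled and 2032 on the WT array, 2.47-fold lower (-1.30). Both of its signals lay well over the floor. The next examples differed from hosts that showed little difference. Mir532 gave 114.6 on the KO-labelled and 220.0 on the WT array (-0.94). It reached the floor on the WT array alone and so had to be lower. Its host Clcn5, an endosomal chloride and proton exchanger, differed by less than 0.01. Mir342, a microRNA of blood cells, gave 726.6 on the KO-labelled and 1204 on the WT array (-0.73), with its host Evl, an actin regulator of the Ena/VASP family, at 5857 and 6043 on the same arrays (-0.05). Mir1933, in the UDP-glucose pyrophosphorylase gene Ugp2, gave 510.4 on the KO-labelled and 846.8 on the WT array (-0.73), while Ugp2 differed by 0.02. These 4 probesets were unique.

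The other 6 of the 10 lowest followed. Mir5104, in the zinc finger gene Zc3h12d (-0.08), gave 191.9 on the KO-labelled and 342.6 on the WT array (-0.84). Mir3075, in the transcriptional coregulator gene Zmiz1 (-0.05), gave 233.9 and 405.0 on the same arrays (-0.79). Mir30d, of the broadly expressed miR-30 family, gave 191.6 on the KO-labelled and 302.4 on the WT array (-0.66) and has no named host. Mir669a-3 (-0.95) and Mir680-1 (-0.91) were not unique, and their KO-labelled signals of 91.3 and 94.2 lay below the floor. Mir29b-2 (-0.72) gave 228.1 on the KO-labelled and 376.9 on the WT array, but its deposited interval covers 61534 bases, so its 42 probes need not lie on the hairpin.

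The highest precursors at the floor differed by less. Mir3091 gave 515.4 on the KO-labelled and 353.4 on the WT array (0.54), and its host Rps21, a ribosomal protein gene, was higher too, at 950.7 and 721.6 on those arrays (0.40). Mir1945, not unique, gave 390.6 on the KO-labelled and 273.2 on the WT array (0.52), and Mir344d-2, also not unique, had 265.7 and 186.8 (0.51). Mir25 gave 244.1 on the KO-labelled and 185.1 on the WT array (0.40), against -0.13 for its host Mcm7, a subunit of the replicative helicase. The other 6 lay close together, with Mir1199 at 0.37, Mir874 at 0.36, Mir1905, Mir3081 and Mir2137 at 0.35, and Mir200a at 0.34. No precursor at the floor was higher by 1.5-fold.

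**Figure D3:**
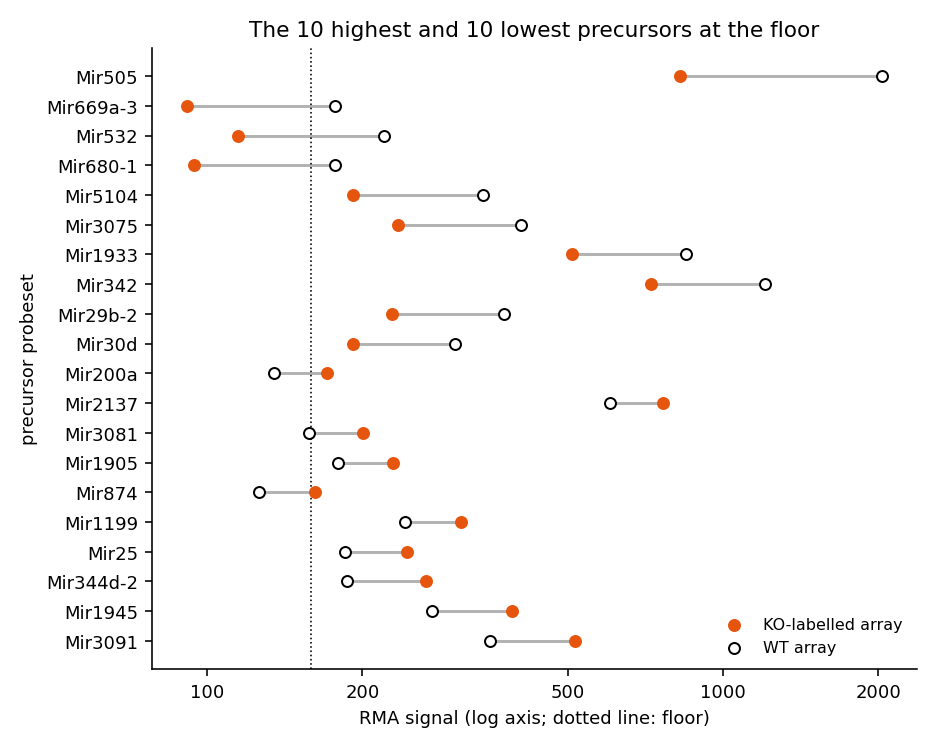
RMA signals (log axis) of the 10 lowest and the 10 highest precursors at the floor, with the KO-labelled array as filled and the WT array as open points and the floor as a dotted line. Mir505 shows the widest gap, 823.9 on the KO-labelled against 2032 on the WT array, while the gaps of the 10 highest stay under 1.5-fold.

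Below the floor the differences were wider and less secure. Mir181a-1 gave 32.2 on the KO-labelled and 107.2 on the WT array (-1.74), the lowest of all 586. Mir701 in Ttc28 (-1.20), Mir421 in B230206F22Rik (-1.10) and Mir5124 in Gcnt2 (-1.03) were the other 3 below the floor past 2-fold. Mir337, an imprinted microRNA of chromosome 12, was the highest of all, at 53.2 on the KO-labelled and 28.5 on the WT array (0.90). These 5 were chosen after their values were seen, as the ends of the list.

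Precursor differences spread more widely than those of their hosts, -1.30 to 0.54 at the floor. In 64 cases precursor and same-strand host both reached the floor, and these had 61 different hosts. None of the 61 hosts was lower or higher by 1.5-fold, where 1.15% and 0.608% of named probesets at the floor were, so few or none would be looked for among 61. Host differences ran over -0.53 to 0.40 with a median of -0.05. Only 6 of the 64 precursors had a host dimmer than themselves on the WT array, so the spreads compare probesets of unlike brightness. Of the 64 precursors, 43 were lower on the KO-labelled array, with a median of -0.20, and 6 were lower by 1.5-fold. The precursor differed more to the lower side than its host in 43 of 64, by a median of -0.14, and 9 were at least 1.5-fold lower than the host while 0 were as much higher. Across the 64 pairs the differences correlated weakly (Pearson r 0.25, Spearman rho 0.26), where pairs share arrays and some share hosts. The 45 with unique probesets had a median of -0.30.

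**Figure D4:**
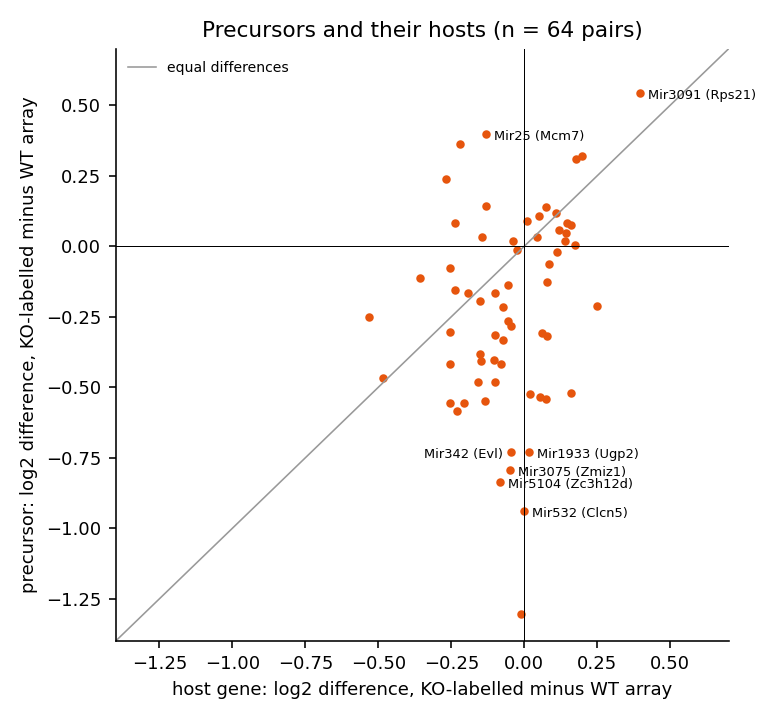
Log2 difference (KO-labelled minus WT array) of 64 precursors at the floor (vertical axis) against that of the same-strand gene holding them (horizontal axis), with a line of equal differences. Hosts lie between -0.53 and 0.40, and the labelled precursors near the bottom, from Mir532 up to Mir342, lie over hosts near 0.

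Base composition moved with these values. Over 390 hairpins with an exact RefSeq match, each pair of signals counted once, the GC content of the hairpin followed the mean signal (Spearman rho 0.50, across probesets). Over the 96 of them at the floor it also followed the difference (rho 0.49), and over all 390 only weakly (rho 0.13). At the floor, the 49 hairpins in the highest of 4 equal bands of GC (54.4% to 71.4%) had a median difference of 0.08. The bands below, with 14, 14 and 19 hairpins at the floor, had -0.25, -0.16 and -0.19, lowest GC first. Within both host classes the order was alike. Hosted hairpins at the floor had a median of 0.08 in the highest band (24) and -0.31 below it (33), and those without a same-strand host had 0.11 (25) and -0.08 (14). The part of base composition in the direction of single precursors was not tested.

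The X chromosome, which carries Mir505 and Mir532, had no lower median than the other chromosomes, over all precursors or at the floor. Of 67 precursors on X, 30 were lower and 35 higher, with a median of 0.02, and the 519 on other chromosomes had -0.06. At the floor, the 8 on X had a median of -0.08 with 5 lower, and the 137 others had -0.08 with 78 lower. Lower by 1.5-fold were 2 of these 8, Mir505 and Mir532, and 10 of the 137, against 1.15% of named probesets at the floor. Mir532 reached the floor on the WT array alone. Over all precursors they were 5 of 67 on X and 36 of 519 elsewhere, against 1.14% of named probesets.

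Neighbouring hairpins were grouped by position. Joining precursors of 1 strand with gaps of at most 10 kb gave 60 clusters with 261 probesets, of which 23 had a member at the floor. In 7 of the 23 every member was lower on the KO-labelled array, and in 3 every member was higher. The 37 clusters with no member at the floor leaned the other way, with every member lower in 6 and every member higher in 12. Members of a cluster can be cut from a single transcript, so a cluster counts as a single observation and not as several, and most of the 60 hold only a pair.

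The largest cluster was the block of repeated hairpins inside Sfmbt2 on chromosome 2 (10465760 to 10518279, plus strand). Sfmbt2 encodes a Polycomb-group protein, is imprinted, and its intron carries a rodent microRNA family known from the placenta. Its 68 probesets, Mir669i to Mir669h, bear 26 symbols and 37 distinct pairs of signals, and only 4 were unique. Of the 68, 65 were lower and 3 higher, with a median of -0.25, or -0.24 over distinct pairs. The cluster's median signal was 99.3 on the KO-labelled and 133.1 on the WT array. The 10 probesets at the floor were all lower, the brightest being Mir466h with 343.6 on the KO-labelled and 417.3 on the WT array (-0.28), then Mir467c (-0.35). Besides Mir669a-3, the others were Mir669j (-0.59), Mir669m-1 (-0.53), Mir466d (-0.43), Mir467e (-0.25), Mir466b-2 (-0.24) and Mir669g (-0.19, on 2 probesets with the same signals). Sfmbt2 itself gave 150.9 on the KO-labelled and 154.7 on the WT array (-0.04), just below the floor. Since nearly all share probes, these counts repeat a few signals.

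The imprinted Dlk1-Dio3 region of chromosome 12, which makes its microRNAs from the maternal chromosome, had more higher than lower probesets, mostly at low signal. Its largest block, Mir379 to Mir409 (109709025 to 109743236, plus strand), had 34 probesets, 10 lower and 22 higher, with a median of 0.08. That is close to named probesets with a mean log2 signal of 4 to 5, whose median was 0.06 with 1106 of 1901 higher. With the trend by signal level removed by loess the block's median was 0.005, and after quantile normalization 0.03. The median signal was 29.9 on the KO-labelled and 22.2 on the WT array, and only Mir679 (-0.19), Mir666 (0.08), Mir667 (-0.12) and Mir134 (0.11) reached the floor. The block from Mir673 to Mir3070b had 6 of 7 higher, with a median of 0.27. In it Mir673 gave 713.7 on the KO-labelled and 624.1 on the WT array (0.19), and Mir665 gave 346.4 and 385.4 (-0.15). In the third block Mir341 reached the floor (0.19). So the region was dim on both arrays, and its direction comes mostly from signals below the floor.

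Several broadly expressed clusters were lower throughout. The X-linked block Mir500 to Mir532 inside Clcn5 had 5 of 5 lower, with a median of -0.55. Of its members Mir532 alone reached the floor, and only on the WT array. The Mir23b cluster on chromosome 13 had all members lower and at the floor, with Mir23b at 363.9 on the KO-labelled and 534.4 on the WT array (-0.55), Mir24-1 at 308.7 and 412.5 (-0.42) and Mir27b at 363.2 and 382.9 (-0.08). Its host 2010111I01Rik was lower as well (-0.25), and the interval of Mir27b covers 2320 bases, more than the hairpin. The sister cluster on chromosome 8 was lower too, with Mir23a at 259.1 on the KO-labelled and 323.9 on the WT array (-0.32), Mir27a at 570.8 and 602.4 (-0.08) and Mir24-2, below the floor, at 78.3 and 98.8 (-0.34). Both clusters, whose mature strands share seeds as printed above for miR-27 and miR-24, were alike in that the Mir27 locus differed least.

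Other pairs with a member at the floor were lower with less uniform sizes. Mir30b and Mir30d on chromosome 15 had a median of -0.60, with Mir30d alone at the floor. Mir16-1 (-0.13) and Mir15a (-0.32), cut from the noncoding RNA Dleu2, were lower while Dleu2 gave 728.7 on the KO-labelled and 689.9 on the WT array (0.08). Mir222 was lower, at 277.0 on the KO-labelled and 371.1 on the WT array (-0.42), but its neighbour Mir221 gave 492.5 and 496.2 (-0.01). The Mir181a-1 and Mir181b-1 pair on chromosome 1 had the lowest cluster median, -1.14. Mir181b-1 gave 377.7 on the KO-labelled and 554.0 on the WT array (-0.55), while Mir181a-1 (-1.74) lay below the floor. Mir181b-1 was not unique, so it can read other miR-181b sequence.

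Other clusters had a median above 0 or near it. The Mir25, Mir93 and Mir106b cluster in Mcm7 had a median of 0.40, with Mir25 at the floor and Mir106b lower (-0.12). The growth-promoting Mir17 to Mir17hg cluster of chromosome 14 had 4 of 5 higher, with a median of 0.13, and only Mir18 (160.7 on the KO-labelled and 150.0 on the WT array, 0.10) at the floor. Mir344d-1 and Mir344d-2 had a median of 0.43. In the rest, the members at the floor were Mir200a (0.34) of the epithelial Mir200b cluster, Mir194-1 (0.31) of the liver and gut pair with Mir215, Mir3093 (0.31) beside Mir9-1, Mir143 (0.07) of the smooth muscle pair with Mir145, and Mir449b. The cluster of Mirlet7a-1 (-0.08), at the floor, had a median of -0.08, and that of Mir99b (0.01) had -0.04, each with 2 of 3 lower.

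**Figure D5:**
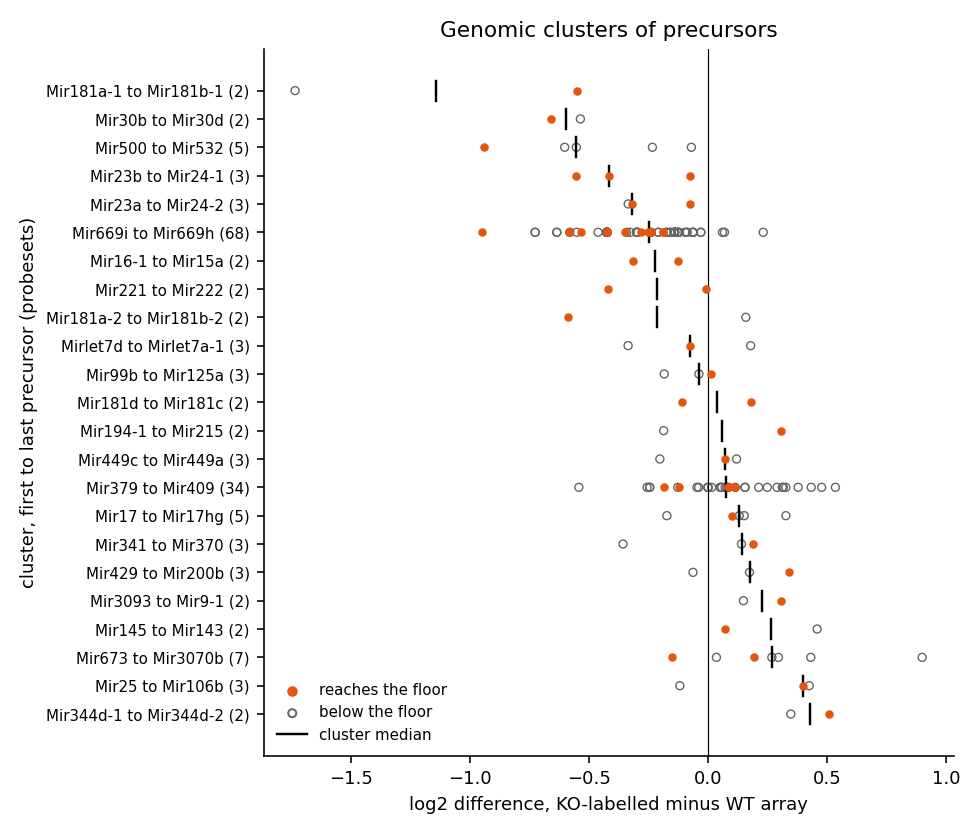
Log2 differences (KO-labelled minus WT array) of every probeset in the 23 genomic clusters with a member at the floor, ordered by median (black bar), with filled points for probesets at the floor and open points for those below it. The clusters of Mir23a, Mir23b, Mir30b, Mir500 and Mir16-1 lie wholly left of 0, and those of Mir344d, Mir3093 and Mir145 wholly right of it.

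Loci that share a seed did not all share a direction. Of 6 loci with the miR-181 seed, Mir181a-1, Mir181b-1, Mir181a-2 and Mir181c were lower, and Mir181b-2 and Mir181d were higher, with a median of -0.33. Mir181a-2, not unique, gave 149.7 on the KO-labelled and 225.4 on the WT array (-0.59). Mir181c gave 241.8 and 260.8 on the same arrays (-0.11), and Mir181d 323.7 and 285.5 (0.18). The miR-181 family is known for setting the signalling threshold of lymphocytes, and its loci lie in pairs on chromosomes 1, 2 and 8.

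The miR-29 seed, which targets collagen mRNAs, was borne by 3 loci of the array, all of them lower, with a median of -0.72. Mir29a gave 42.6 on the KO-labelled and 78.1 on the WT array (-0.87), and Mir29b-1 gave 7.25 and 11.1 (-0.62), both below the floor. The miR-15 and miR-16 seed split by locus. Mir15a and Mir16-1 in Dleu2 were lower, while Mir15b at 22.2 on the KO-labelled and 16.4 on the WT array (0.43) and Mir16-2 at 90.8 and 90.2 (0.01), both in the condensin gene Smc4, were not. Over its 6 loci the median was 0.09. The miR-25 and miR-92 seed had 6 loci with a median of 0.19, 4 of them higher, and Mir92b gave 368.2 on the KO-labelled and 296.6 on the WT array (0.31). The let-7 seed, known for holding back growth genes, had 12 loci with a median of -0.05, 7 lower and 5 higher, of which Mirlet7a-1 alone reached the floor. These counts took Mirlet7f-1 as higher, from a probeset of the opposite strand at 7.87 on the KO-labelled and 7.025 on the WT array (0.16). The probeset on the strand of its hairpin gave 19.4 and 24.4 on the same arrays (-0.34), so that locus was lower on its own strand.

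Precursors known from macrophages and blood cells had brighter probesets than precursors as a whole. Of a list of such microRNAs, chosen with earlier results of these data known, 46 names were measured on 49 probesets, with a median signal of 78.5 on the KO-labelled and 90.1 on the WT array, against 60.1 and 60.2 over all 586. The floor was reached by 18 (36.7%). Of these, 15 had the dimmer signal on the KO-labelled array, and the median difference of the 18 was -0.32. Among all precursors that reached the floor 57.2% were lower, and among named probesets 52.8%. Mir511 and Mir181a-2 reached it on the WT array alone and so had to be lower, while Mir18 reached it on the KO-labelled array alone and so had to be higher. Several of the 18 are neighbours in the same cluster, such as Mir23b, Mir27b and Mir24-1, so they are not independent. Over all 49 the median was -0.08, with 28 lower and 21 higher. Those at the floor without a value so far were Mir142, Mir511, Mir210 and Mir9-3. Mir142, a precursor of blood cells, gave 438.5 on the KO-labelled and 541.5 on the WT array (-0.30), and the transcript around it, A430104N18Rik, was lower by a like amount (-0.25). Mir511, in an intron of the mannose receptor gene Mrc1, gave 150.6 on the KO-labelled and 219.3 on the WT array (-0.54), although Mrc1 gave 5156 and 4893 (0.08). The hypoxia-induced Mir210 gave 559.7 on the KO-labelled and 513.1 on the WT array (0.13), and Mir9-3 had 195.0 and 173.9 (0.17).

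The other 31 macrophage probesets lay below the floor, between 6.62 and 150.6 on the KO-labelled and between 7.29 and 147.2 on the WT array, 13 lower and 18 higher. They include Mir155, induced by inflammatory signals, at 78.5 on the KO-labelled and 90.1 on the WT array (-0.20), and Mir146, the feedback inhibitor of such signals, at 17.4 and 15.6. These are signals over precursor sequence and say nothing of the mature strands. Other names of the list, miR-21 and miR-223 among them, were not analysed here.

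A list of microRNAs typical of muscle, liver, neurons, epithelium and other tissues served as the contrast. Its 46 measured names, on 47 probesets, had a median signal of 27.9 on the KO-labelled and 23.8 on the WT array. The floor was reached by 8 (17.0%), of which 2 were lower, with a median of 0.18, and over all 47 the median was 0.07. The macrophage list thus had brighter signals and a lower median difference than this one, a description of 2 lists on the same 2 arrays. Hosts and GC content differ between precursors too, and their part in this contrast was not tested.

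Genes of microRNA processing were slightly lower, none by much. Of 33 measured, 32 reached the floor, 26 were lower and 7 higher, and 0 were lower or higher by 1.5-fold, where 1.15% and 0.608% of named probesets at the floor were. Their median was -0.09, beside -0.01 for named probesets at the floor. Dgcr8, the RNA-binding partner of Drosha, gave 485.7 on the KO-labelled and 616.3 on the WT array (-0.34), and Tnrc6a, which links Argonaute to silencing, gave 1145 and 1439 (-0.33). The highest were Zc3h12a, an RNase that also cuts precursor hairpins, at 802.1 on the KO-labelled and 741.8 on the WT array (0.11), and the uridylyl transferase gene Zcchc11 at 1944 and 1822 (0.09). Drosha gave 662.0 on the KO-labelled and 704.4 on the WT array (-0.09), Dicer1 1689 and 1745 (-0.05), and the exporter gene Xpo5 894.0 and 1005 (-0.17). The Argonaute gene Eif2c2 gave 3418 on the KO-labelled and 3918 on the WT array (-0.20).

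The annotation gives each probeset a strand, and 15 symbols had overlapping probesets on both strands. The strands usually differed in brightness. For Mir24-1 the plus-strand probeset gave 308.7 on the KO-labelled and 412.5 on the WT array, and the other strand 13.1 and 16.5. The brighter strand was not always that of the hairpin. Mir191 has its mature strands on the plus strand, whose probeset gave 154.4 on the KO-labelled and 143.5 on the WT array, below the floor. Its minus-strand probeset gave 226.4 and 217.8 on the same arrays and counts among the precursors at the floor. For Mir486, an erythroid microRNA in Ank1, both strands reached the floor, with 288.8 on the KO-labelled and 261.9 on the WT array on the brighter strand and 168.6 and 148.1 on the dimmer.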

How the data were processed

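Each genotype gave whole-transcript cDNA for 1 Affymetrix array. The authors deposited a linear RMA intensity per probeset, per the file headers. The submitters' processing notes name RMA in Affymetrix Expression Console 1.2.1. The deposited log2 values of the same signals differed from log2 of the table by at most 5e-05. The deposited signed fold was recomputed from the signals. RMA aligns the distributions of both arrays, so a general shift would be hidden.

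Differences, counts past 1.5-fold and 2-fold, clusters (10 kb) and hosts (same-strand named probesets holding the precursor, the brightest of several) were computed with pandas 2.3.3, numpy 2.4.6, statsmodels 0.14.6 and scipy 1.17.1 under Python 3.11.15, drawn with matplotlib 3.10.9, and tested on simulated data. Sequences came from RefSeq (GRCm38.p6). Of main probesets, 124 carried several symbols and 6954 none. Of the precursors, 46 shared their signals with another. No test between genotypes was possible. The members and lists were chosen with earlier results of these data known. Named precursors are the 12 brightest, the 10 highest and 10 lowest at the floor, macrophage and cluster members at the floor, and the furthest processing genes. Alternatives covered source, scaling, offset (16), floor, members and cluster gap (5 and 50 kb). The arrays' number limits the precision.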

Additional observations from a re-analysis of the deposited data

How the results depend on the processing

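No paired analysis was possible because each genotype had 1 array. Of counts and medians under the alternatives, 247 stayed close (a count within 1.5 times, a median within 0.1) and 20 moved, as did 91 and 1 cluster medians. All 230 values of named precursors moved from the main value by at most 1 SD of the differences of probesets of like signal. Values near 0 changed sign: Mir221 (-0.01) gave 0.01 after loess and 0.02 after quantile normalization, and the medians from 4 to 5 and 5 to 6 gave -0.05 and -0.05 after loess, -0.02 and -0.03 after quantile normalization, and that from 4 to 5 gave -0.01 when centred. The median from 7 to 8 gave 0.03 with unique probesets and 0.03 without the Sfmbt2 cluster. At the floor without a same-strand host it was -0.02 when centred. The number of precursors lower by 2-fold was 2 after loess, 5 with no floor and 3 with the floor at the 25th percentile. Lower by 1.5-fold were 41 with no floor, 25 and 3 with floors at the 25th and 75th percentile, and 7 with both arrays at the floor, while 6 were higher with no floor. The counts with other floors are over other sets of probesets, while that after loess is over the same set. Requiring both arrays at the floor removed the 5 lower precursors whose KO-labelled signal lay below it. By signal level, precursors lower by 1.5-fold numbered 11 from 7 to 8 after loess, against 5 as deposited. With 16 added to each signal they were 0 under 4, 1 from 4 to 5, 3 from 5 to 6 and 3 from 7 to 8, since an offset shrinks dim differences. With unique probesets they were 2 under 4 and 2 from 7 to 8. With the floor at the 75th percentile the medians were -0.23 over precursors, -0.32 with a same-strand host, -0.12 without, and -0.33 with a host at the floor. With unique probesets and a host at the floor it was -0.30; the cause was not tested. Of clusters, the Mir181d pair (0.04) turned to -0.10 at a gap of 50 kb, where it joins its neighbour. The median of all named probesets lay between 0.00 and 0.02 under every scaling. Chosen after seeing the data were: signal pairs once, no intervals over 400 bases, and no Sfmbt2 cluster.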
